A study of Mus musculus with 10 samples.

Results

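Gngt2 and 7 other genes used to recognise nonclassical monocytes (Nr4a1, Treml4, Ace, Spn, Eno3, Pou2f2 and Adgre4) were followed in macrophages of the small intestinal lamina propria. The genes were taken by symbol from the deposited count table, which lists 17279 genes and holds all 8 of them. Gngt2 was chosen by its lower CPM after stroke in these same libraries, so its difference is given as a description without a test. The other 7 were taken as nonclassical monocyte genes. They and the gene lists below were chosen with earlier results of these data known, so their unadjusted p-values are given as descriptions. All 8 passed the filter on low counts.

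The libraries came from C57BL6/J mice 24 h after surgery, 5 from sham-operated mice and 5 from mice with pMCAO, the permanent occlusion of the middle cerebral artery that models ischaemic stroke. The macrophages were sorted as CX3CR1-GFP+ cells from the mucosal layer of the whole small intestine. The labels name the strain alone and do not say which allele carried the GFP, nor the age or sex of the mice. The titles call the libraries biological replicates, and replicate 1 of each group carries the word pool in its name, with no statement of what was pooled.

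Nonclassical monocytes are blood monocytes with little Ly6C and much CX3CR1 on their surface, and they patrol the inner wall of small vessels. They arise from classical, Ly6C-high monocytes and depend on the transcription factor Nr4a1. Lamina propria macrophages also express CX3CR1 and are in large part replaced by classical monocytes, so a sort on CX3CR1-GFP can hold macrophages and monocytes alike. In such bulk RNA, fewer cells of a kind and less RNA per cell cannot be told apart.

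Total counts were between 18894151 and 60665972 in the sham libraries and between 6430643 and 28672285 in the pMCAO libraries. The macrophage genes C1qb, encoding a complement chain, and Csf1r, the receptor for the growth factor CSF1, averaged 2060 and 1160 CPM (counts scaled to the size of the library). Neutrophil markers were all but absent, since 1 of 9 passed the filter and that gene, Retnlg, averaged 3.62 CPM. Plasma cell RNA was abundant, and its marker Jchain averaged 8540 CPM, above C1qb. Plasma cell markers summed to between 1090 and 25600 CPM in sham and between 1380 and 28400 CPM after pMCAO. The sums of macrophage markers were 3380 to 8660 CPM and 4740 to 9760 CPM. Xist, the RNA that silences an X chromosome in females, ranged from 1.39 to 4.92 CPM in 8 libraries. The exceptions were sham replicate 5 (1756 CPM) and pMCAO replicate 4 (4461 CPM). Values without these 2 libraries are given beside the genes whose value or unadjusted p they change most. All CPM values here are scaled by the trimmed mean of M values (TMM) unless another scale is named.

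Gngt2, which encodes a gamma subunit of heterotrimeric G proteins first known from cone photoreceptors, lies on chromosome 11 from 95837216 to 95845734 (GRCm38, plus strand). It was at 132, 104, 140, 122 and 94.7 CPM in sham replicates 1 to 5 and at 64.6, 56.0, 95.3, 51.4 and 46.8 CPM in pMCAO replicates 1 to 5. The means were 118 ± 18.8 CPM in sham and 62.9 ± 19.3 CPM after pMCAO (SD, n = 5 each). Each of the 5 pMCAO values was below the sham mean, and 4 fell short of the sham minimum, a count that 3.55% of all genes reached or exceeded. Since the gene was chosen on these values, nothing is read from that share. The exception was pMCAO replicate 3, which lay just above sham replicate 5.

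The fitted log2 fold change of Gngt2, pMCAO against sham, was −0.92, which is 53.0% of the sham level. This is the value for which the gene was picked, so it is given without an interval or a p-value. It was also −0.92 without the 2 libraries with high Xist.

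The scale decided whether the groups of Gngt2 overlapped. Scaled to total counts alone, the lowest sham library was replicate 2 at 95.1 CPM and the highest pMCAO library was replicate 3 at 83.5 CPM, so the groups did not overlap, as for 0.596% of all genes with the pMCAO group lower on this scale. Sham replicate 5 had the largest TMM factor (1.275), which took its Gngt2 value from 121 to 94.7 CPM. Per length, in TPM (counts divided by exon length and scaled to a common sum), the lowest sham library was at 79.9 and the highest pMCAO library at 73.7, again without overlap, as for 0.338% of the genes with a length. Since Gngt2 was chosen for its lower CPM after pMCAO in these libraries, nothing is read from these 2 shares. The plot of Gngt2 on these scales shows both orders.

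**Figure D1:**
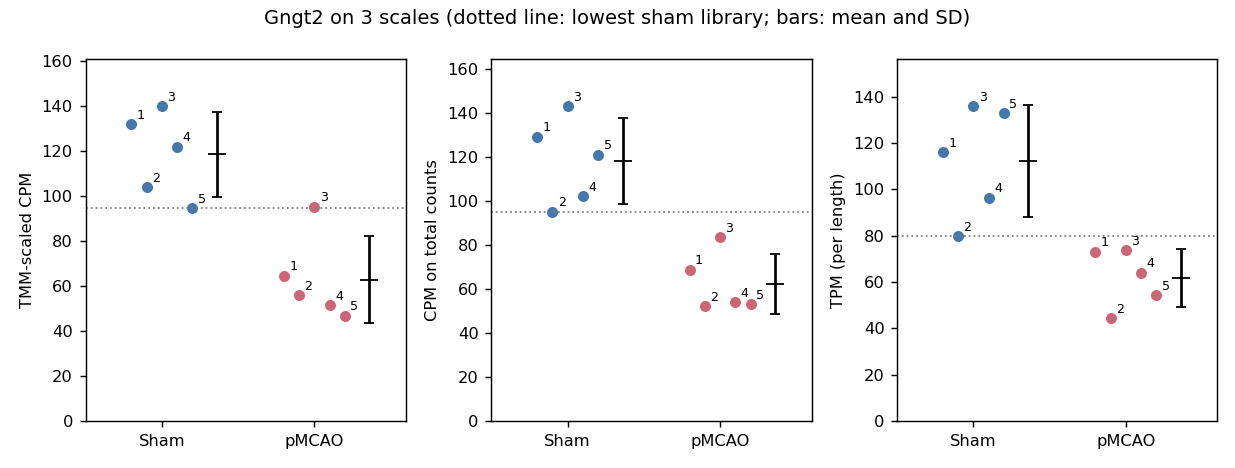
Gngt2 in each library on 3 scales: TMM-scaled CPM, CPM on total counts and TPM, with points numbered by replicate, bars for the mean and SD of 5 libraries, and a dotted line at the lowest sham library. Only with TMM scaling does a pMCAO library (replicate 3, at 95.3 CPM) reach the lowest sham library (replicate 5, at 94.7 CPM).

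Gngt2 shares 234 exon bases with Abi3, which lies on the opposite strand and encodes a protein of the actin-regulating WAVE complex. Whether the counting used strand is not given in the sources used here, so reads in the shared bases cannot be assigned with certainty. Abi3 was at 46.4 CPM in sham and 39.3 CPM after pMCAO on average, with a log2 fold change of −0.24 (edgeR's quasi-likelihood test, adjusted p = 0.925). It thus stood below Gngt2 in both groups, and its interval, from −0.72 to 0.24, included no change.

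Gngt2 partners belong to the same signalling unit, since a gamma subunit works only when joined to a beta subunit. Of 11 other gamma subunit genes, 5 passed the filter. Gng2 was at 133 CPM in sham with a log2 fold change of 0.028 (SE 0.17), Gng5 at 63.9 CPM with −0.055 (SE 0.16) and Gng12 at 59.1 CPM with 0.16 (SE 0.24), and none of these passed the test (adjusted p from 0.951 to 0.989, edgeR). Gng10 was at 4.02 CPM in sham with a log2 fold change of 0.15. Gng11 was the lowest expressed of the 5, between 0.279 and 4.34 CPM in sham and between 0.262 and 0.738 CPM after pMCAO. Its fitted log2 fold change was −2.0 (edgeR, unadjusted p = 0.0255, adjusted p = 0.922). Over the alternatives that kept Gng11, it ran from −2.47 (edgeR without the 2 libraries with high Xist, unadjusted p = 0.0216) to −1.29 (limma-voom, unadjusted p = 0.183). Among 5 beta subunit genes, 1 had a positive and 4 a negative log2 fold change, from −0.29 to 0.074, and 0 passed the test. The most abundant, Gnb1 and Gnb2, had log2 fold changes of −0.22 (SE 0.17) and −0.19 (SE 0.20).

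Across the 7 genes beside Gngt2, 0 passed an FDR of 0.05 in edgeR's quasi-likelihood test, as did 0 of all 16949 genes (0% called). At an unadjusted p under 0.05 stood 2 of the 7, Ace lower and Pou2f2 higher after pMCAO. Over all genes, 4.71% stood there (2.45% lower and 2.26% higher). Since the 7 were chosen with earlier results of these data known, nothing is read from this comparison. The count of 2 moved between 0 and 3 of 7 over the alternatives. It was 0 without pMCAO replicate 4 (unadjusted p = 0.0621 for Ace and 0.0709 for Pou2f2, edgeR) and 0 without the 2 libraries with high Xist (0.0684 and 0.127). Their fitted values were negative for 4, as for 50.6% of all genes, and positive for 3, with a median log2 fold change of −0.14 against −0.0059 over all genes tested. In none of the 7 did the groups separate, a pattern that 0.985% of all genes showed. The fitted differences thus lay on both sides of 0, as the plot of values by library shows.

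**Figure D2:**
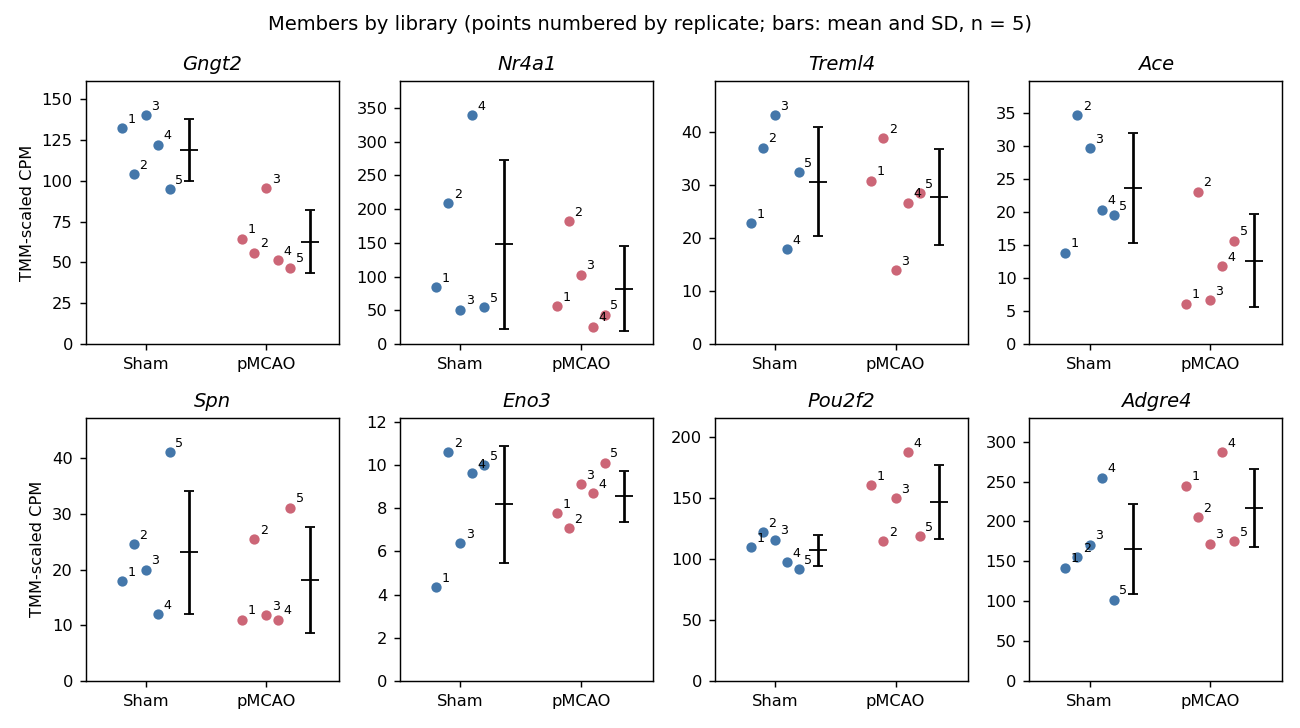
TMM-scaled CPM of the 8 genes in each library (vertical axes, one scale per gene, each starting at 0), with points numbered by replicate and bars for the mean and SD of 5 libraries per group. The ranges of the groups overlap in all 8, and Nr4a1 has the widest spread within groups.

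The transcription factor Nr4a1 (chromosome 15, from 101254269 to 101274795, plus strand), on whose activity nonclassical monocytes depend and which is also an immediate-early gene in many activated cells, varied most among libraries. It was at 84.8, 209, 51.3, 339 and 54.5 CPM in the sham libraries and at 56.6, 182, 103, 25.8 and 43.8 CPM in the pMCAO libraries. The range was 6.61-fold within sham and 7.06-fold within pMCAO, wider than the difference between the groups. The log2 fold change was −0.84 with an SE of 0.61 (adjusted p = 0.922, edgeR). It was −0.30 without sham replicate 4 and −1.37 without pMCAO replicate 2, the highest library of each group.

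The 2 genes most like Nr4a1 across the libraries, once each group's mean was removed, were Il1b and Plaur, with Pearson's r of 0.964 and 0.953 over 10 libraries. Il1b encodes the inflammatory cytokine interleukin-1 beta and Plaur the receptor for urokinase. In sham replicates 2 and 4, the highest sham libraries for Nr4a1, Il1b stood at 1310 and 2530 CPM, and in the other sham libraries between 189 and 536 CPM. In pMCAO replicate 2, the highest after stroke, it stood at 1060 CPM. These 3 libraries were thus the highest for both genes.

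Immediate-early genes, which cells switch on within minutes of a stimulus such as tissue dissociation, summed to between 5200 and 15000 CPM in sham and between 7530 and 12000 CPM after pMCAO. Of the 12 genes listed, 12 were tested and 0 passed, with 5 positive and 7 negative log2 fold changes and a median of −0.13. The most abundant, Fos and Zfp36, had log2 fold changes of −0.14 and −0.12. Sham replicate 4 was highest for this sum as well as for Nr4a1, and sham replicate 5 was lowest for the sum and near the lowest for Nr4a1. After pMCAO the orders differed, since replicate 2 was highest for Nr4a1 but at 7950 CPM for the sum, and replicate 3 was highest for the sum at 12000 CPM. The part of such activation in the Nr4a1 values was not tested. The paralogs Nr4a2 and Nr4a3 were at 27.5 and 15.0 CPM in sham, with log2 fold changes of −0.42 (SE 0.75) and −0.17 (SE 0.49).

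The promoter of Nr4a1 is shown as that of an immediate-early gene. Capitals mark the half-site of the cyclic AMP response element, through which many immediate-early genes are switched on. The sequence is from RefSeq (GRCm38.p6), chr15:101266596-101266895, plus strand, 250 bases before to 50 after the start. The motif searched was TGACG on either strand (CGTCA as its reverse complement).

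Nr4a1 promoter: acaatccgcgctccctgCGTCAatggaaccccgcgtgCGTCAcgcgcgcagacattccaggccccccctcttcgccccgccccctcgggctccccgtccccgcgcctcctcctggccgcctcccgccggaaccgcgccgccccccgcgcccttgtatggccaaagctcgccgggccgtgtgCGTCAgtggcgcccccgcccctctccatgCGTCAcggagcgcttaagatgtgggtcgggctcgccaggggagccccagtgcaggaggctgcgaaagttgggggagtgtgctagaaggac

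The Nr4a1 window held 4 matches, whereas 20.8% of 32851 mouse promoter windows of this table held at least 1 and 0.231% held 4 or more. Among the promoters of the 7 genes with an entry, Nr4a1 was the 1 with a match. Of the 9 immediate-early genes with an entry, 7 had a match in at least 1 window, among them Fos with 2 and Dusp1 with 3. A match of these letters is a description of the sequence and no evidence of binding.

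Pou2f2 (chromosome 7, from 25087344 to 25179726, minus strand) encodes the transcription factor Oct-2, best known from B cells and also expressed in monocytes. It was at 110, 122, 116, 97.4 and 91.7 CPM in the sham libraries and at 161, 115, 150, 188 and 119 CPM after pMCAO. All 5 pMCAO libraries were above the sham mean of 108 ± 12.8 CPM, but replicates 2 and 5 lay within the sham range. The log2 fold change was 0.45 with an SE of 0.17 and a 95% interval from 0.082 to 0.82 (edgeR, unadjusted p = 0.0205, adjusted p = 0.922). It fell to 0.29 without the 2 libraries with high Xist.

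B cell markers were measured beside Pou2f2. They summed to between 520 and 737 CPM in sham and between 430 and 798 CPM after pMCAO, and 10 of 11 had a negative log2 fold change, with a median of −0.45 and 0 of 11 past the test. The most abundant were Bank1 and Cd79b, at 270 and 72.5 CPM, while Ms4a1, Cd79a, Pax5 and Blk were each at 0 in at least 1 pMCAO library. Their lowest sham values were 11.5, 0.189, 3.52 and 0.126 CPM. The median total was 33913980 counts in sham and 11605371 in pMCAO, and the part of depth in these zeros was not tested. In pMCAO replicate 4, where Pou2f2 was highest, the summed B cell markers were at 578 CPM. This was within the sham range and, in its own group, below only replicate 5 (798 CPM). Whether B cell RNA contributed to the Pou2f2 values was not tested. The related Pou2f1, encoding the widely expressed Oct-1, was at 61.7 CPM in sham with a log2 fold change of 0.27 (SE 0.18). The cofactor Pou2af1, which joins these factors in B and plasma cells, ranged from 19.2 to 290 CPM in sham and from 20.6 to 425 CPM after pMCAO, with a log2 fold change of 0.21 (SE 0.81). Plasma cell markers, 7 in all, summed to between 1090 and 25600 CPM in sham and between 1380 and 28400 CPM after pMCAO, led by Jchain and Xbp1, and 0 passed the test. Closest to Pou2f2 were Mesdc1 (r = 0.913) and Vps26a, a part of the retromer that returns membrane proteins from endosomes (r = 0.909).

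Adgre4 (chromosome 17, from 55749984 to 55853662, plus strand) encodes an adhesion receptor of the family of F4/80. It was at 142, 155, 171, 255 and 102 CPM in sham and at 245, 205, 172, 287 and 175 CPM after pMCAO. Each of the 5 pMCAO libraries was above the sham mean of 165 ± 56.4 CPM, and sham replicate 4 stood above 4 of them. The log2 fold change was 0.40 with an SE of 0.24 (edgeR, adjusted p = 0.922), and it was 0.13 without the 2 libraries with high Xist. Adgre1, the gene of F4/80 itself, had a log2 fold change of 0.26 (SE 0.32) at 440 CPM in sham. Adgre5, which encodes CD97, had −0.19 (SE 0.17) at 521 CPM. Closest to Adgre4 were Phactr2 and Dhx58, a sensor of viral RNA, with r of 0.972 and 0.969. Dhx58 itself had a log2 fold change of −0.81 (edgeR, adjusted p = 0.922), opposite in sign to Adgre4.

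Eosinophils can also carry Adgre4. Of 6 eosinophil markers, 5 passed the filter, with Prg2 and Siglecf the most abundant at 7.30 and 5.67 CPM, and they summed to between 6.98 and 22.2 CPM in sham and between 6.97 and 38.4 CPM after pMCAO. Of these, Ccr3, encoding the receptor for eotaxin, had a log2 fold change of 2.09 (edgeR, unadjusted p = 0.0165, or 0.0615 without the 2 libraries with high Xist, adjusted p = 0.922) at levels between 0.189 and 8.94 CPM. In pMCAO replicate 4, the highest for Adgre4, the sum was 9.84 CPM, and in pMCAO replicate 2, the highest for the sum, Adgre4 was at 205 CPM. Whether eosinophil RNA contributed to the Adgre4 values was not tested.

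Treml4 (chromosome 17, from 48264295 to 48275360, plus strand) encodes a receptor of the TREM family that marks nonclassical monocytes and some dendritic cells and macrophages. It was at 22.8, 37.1, 43.2, 17.9 and 32.5 CPM in sham and at 30.9, 38.9, 14, 26.7 and 28.5 CPM after pMCAO. Low and high libraries were found in both groups, and the log2 fold change was −0.14 with an SE of 0.29 and a 95% interval from −0.78 to 0.50 (edgeR, adjusted p = 0.968). The interval runs from 0.582 to 1.41 times the sham level. Of 5 related genes, Trem1, Trem2, Trem3 and Treml2 were tested and 0 passed. Trem2, a lipid receptor of tissue macrophages, was at 15.1 CPM in sham with a log2 fold change of 0.72 (SE 0.41), and Trem1, Trem3 and Treml2 had −0.31, 0.29 and −0.28. The genes most like Treml4 were Ap2b1 and Sec24d, parts of the clathrin adaptor and of the coat of vesicles leaving the endoplasmic reticulum, with r of 0.977 and 0.955.

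Spn (chromosome 7, from 127132232 to 127137823, minus strand) encodes CD43, a large sialic acid-rich surface protein that is high on nonclassical monocytes and on T cells. It was at 17.9, 24.6, 20, 12 and 41.1 CPM in sham and at 11, 25.4, 11.8, 11 and 31.1 CPM after pMCAO. Of the 5 pMCAO libraries, 3 were below the sham minimum and 2 were above the sham mean of 23.1 ± 11 CPM. The log2 fold change was −0.35 with an SE of 0.39 (edgeR, adjusted p = 0.939), and it turned to 0.090 without the 2 libraries with high Xist.

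T cell markers were present beside Spn. They summed to between 247 and 807 CPM in sham and between 251 and 582 CPM after pMCAO. Of 13 markers, 12 had a negative log2 fold change, with a median of −0.64, and 0 passed the test. Sham replicate 5 and pMCAO replicate 5 were the highest of their groups for Spn and also for the T cell sum, at 807 and 582 CPM. Sham replicate 4, lowest for Spn in its group, was lowest for that sum too, at 247 CPM. After pMCAO the lowest T cell sum was in replicate 3 (251 CPM), while Spn was lowest in replicates 1 and 4. Replicate 5 of each group was also highest for B cell markers (737 and 798 CPM). It was lowest for macrophage markers (3380 and 4740 CPM). The part of T cell RNA in the Spn values was not tested. The most abundant markers, Cd4 and Cd28, were at 141 and 52.4 CPM, and macrophages can carry Cd4 as well. The genes most like Spn were Pvrl1 (r = 0.962) and Ccdc88c (r = 0.956).

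Ace (chromosome 11, from 105967945 to 105989964, plus strand) encodes angiotensin-converting enzyme, a peptidase of the cell surface that is present on nonclassical monocytes, on endothelium and on the brush border of enterocytes. It was at 13.9, 34.7, 29.7, 20.4 and 19.6 CPM in sham and at 6.16, 23.1, 6.67, 11.8 and 15.7 CPM after pMCAO. Every pMCAO library was below the sham mean of 23.7 ± 8.35 CPM and 3 of 5 fell short of the sham minimum. The log2 fold change was −0.89 with an SE of 0.38 and a 95% interval from −1.71 to −0.062, or 54.0% of the sham level (edgeR, unadjusted p = 0.0372, adjusted p = 0.922). With each library left out it stayed between −1.22 and −0.71. The lowest libraries rest on few reads, 42 counts in pMCAO replicate 1 and 66 in pMCAO replicate 3.

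Other cells that make Ace were measured in the same libraries. Of 12 enterocyte markers, 6 had a positive and 6 a negative log2 fold change, with a median of 0.013 and 0 past the test. They summed to between 371 and 1040 CPM in sham and between 211 and 1620 CPM after pMCAO, with Fabp2 and Anpep the most abundant at 179 and 136 CPM. The sham library highest for Ace, replicate 2, had the lowest enterocyte sum of its group, at 371 CPM. The pMCAO library highest for Ace, also replicate 2, had the highest enterocyte sum of all, at 1620 CPM. The part of enterocyte RNA in the Ace values was not tested. Of 8 endothelial markers, 5 passed the filter, with sums of 37.9 to 103 CPM in sham and 24.8 to 82.7 CPM after pMCAO, most of it Pecam1 at 51.4 CPM, which leukocytes express as well. Closest to Ace were Dnajc21 and Reck, with r of 0.946 and 0.943, and Reck averaged 0.746 CPM.

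Eno3 (chromosome 11, from 70657202 to 70662513, plus strand) encodes the enolase best known from muscle, an enzyme of glycolysis. It was at 4.33, 10.6, 6.39, 9.62 and 10 CPM in sham and at 7.77, 7.06, 9.10, 8.70 and 10.1 CPM after pMCAO. All pMCAO libraries lay within the sham range, and the log2 fold change was 0.061 with a 95% interval from −0.59 to 0.71 (edgeR, adjusted p = 0.987), or 0.13 without the 2 libraries with high Xist. Eno1, the enolase of most tissues, was at 40.4 CPM in sham with a log2 fold change of 0.051 (SE 0.22), and Eno4 was at 2.53 CPM with 0.47 (SE 0.73). Muscle markers, of which 6 of 10 passed the filter, led by Acta2 and Tagln, summed to at most 71.6 CPM in any library, and that maximum was in pMCAO replicate 4, where Eno3 was at 8.70 CPM. Whether muscle RNA contributed to the Eno3 values was not tested. Closest to Eno3 were Tmem194b (r = 0.910) and Eml4 (r = 0.899).

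The levels of the 8 genes were compared per length. Adgre4 had the highest mean level at 101 TPM, followed by Gngt2 at 87.1, Nr4a1 at 53.6, Pou2f2 at 29.0, Treml4 at 27.6, Eno3 at 9.05, Spn at 8.53 and Ace at 6.20 TPM over 10 libraries. Adgre4 and Gngt2 were at the 95.3 and 94.5 percentiles of the genes tested, and Ace was at the 46.3 percentile. The ranges of all neighbours in this order overlapped, although Treml4 was above Eno3 in 10 of 10 libraries. Adgre4 was above Gngt2 in 5 of the 10. In mean TPM, Gngt2 stood above Adgre4 in sham (112 against 81.2) and below it after pMCAO (61.9 against 122). Because Gngt2 was chosen for its fall, nothing is read from this change of order.

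Likeness among the 8 genes within groups was mixed. Over 10 libraries, with each group's mean removed from log2 CPM, the 28 pairs among them had Pearson's r between −0.742 (Spn and Adgre4) and 0.644 (Treml4 and Ace). The value was above 0 in 13 pairs and below 0 in 15. The highest values joined Treml4, Ace and Spn with each other (0.531 to 0.644). How common such values were depended on the gene taken as reference. With Treml4, 13.4% and 20.6% of the genes compared had a higher r than Ace and Spn had. With Ace, 4.4% had a higher r than Treml4 and 8.91% than Spn. With Spn, 17.5% had a higher r than Treml4 and 15.7% than Ace. With Treml4, Ace and Spn, Gngt2 had −0.528, −0.531 and −0.593, below the r of 83.2% to 86.9% of the genes compared with Gngt2. Spearman's rho of Gngt2 was −0.139 with Treml4 and −0.467 with both Ace and Spn, so the value with Treml4 was weaker by rank. Its highest Pearson's r with any of the 7 was 0.257, with Pou2f2. These values are descriptions, since they share libraries and depth.

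**Figure D3:**
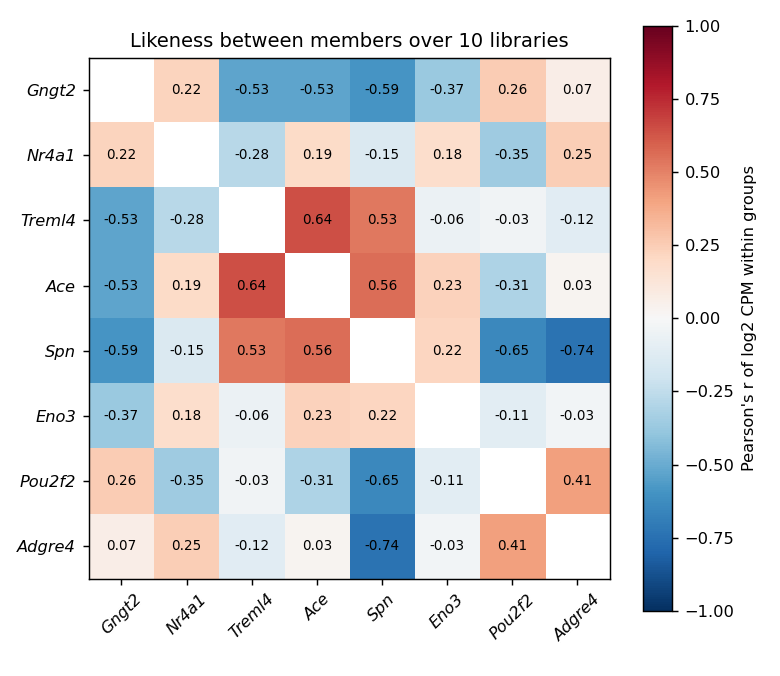
Pearson's r between the 8 genes over 10 libraries, computed on log2 CPM after subtracting each group's mean (colour scale from −1 to 1). The pairs among Treml4, Ace and Spn range from 0.531 to 0.644, and Gngt2 is negative with all 3.

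The genes most like Gngt2 by the same measure were Arf5 (r = 0.971), Dpm2 (0.957), Hist1h4h (0.945), Tnfsf12 (0.944) and Prdx5 (0.942), among 13099 named genes compared. Hist1h4h rests on few reads, with a mean of 1.08 CPM and 4 to 19 counts in the pMCAO libraries. Arf5 encodes a small GTPase of vesicle transport, Dpm2 a regulator of dolichol-phosphate-mannose synthesis, Hist1h4h a histone H4, Tnfsf12 the cytokine TWEAK and Prdx5 a peroxiredoxin. The log2 fold change was −0.080 for Arf5, −0.29 for Dpm2, −0.56 for Hist1h4h, 0.30 for Tnfsf12 and −0.49 for Prdx5, and 0 of the 5 passed the test in edgeR (adjusted p from 0.922 to 0.977). Their union exon lengths were 470 to 2139 bases, against 1877 for Gngt2. Over all genes, the median log2 fold change was −0.072 in the class of lengths that holds Gngt2 (1505 to 2884 bases, the second shortest of 5 classes of like size) and 0.081 in the longest class. The part of length in the Gngt2 values was not tested.

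Beyond the 8, 17 further genes of nonclassical monocytes were followed and 17 were tested. The list holds Nr4a2 and Nr4a3, paralogs of Nr4a1, and Cx3cr1, which lamina propria macrophages also express. Its values are thus no measure of nonclassical monocytes alone. Of the 17, 0 passed an FDR of 0.05, 8 had a positive and 9 a negative log2 fold change, and the median was −0.14. Cx3cr1, the receptor whose locus names the sort, was at 212, 121, 224, 149 and 98.8 CPM in sham and at 215, 171, 193, 208 and 108 CPM after pMCAO, with a log2 fold change of 0.15 (SE 0.26). Fcgr4, an activating Fc receptor and the most abundant of the 17, had −0.37 (SE 0.33), and Clec4a1, a C-type lectin receptor, had 0.20 (SE 0.34). Their summed level was between 895 and 1960 CPM in sham and between 1020 and 1670 CPM after pMCAO.

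Of these 17, Ear2 and S1pr5 stood at an unadjusted p under 0.05, in opposite directions, where 4.71% of all genes stood there. The list was chosen with earlier results of these data known, so the values of both genes are given as descriptions. Ear2, a ribonuclease gene of eosinophils and monocytes, was at 30.0, 29.9, 19.6, 18.5 and 26.4 CPM in sham and at 33.4, 47.3, 41.4, 40.9 and 61.8 CPM after pMCAO, without overlap, as for 0.985% of all genes in either direction. Its log2 fold change was 0.86 with an SE of 0.21 (edgeR, unadjusted p = 0.00168, adjusted p = 0.922). Ear2 has near-identical relatives in the mouse genome, so its counts could be split among them. S1pr5, a sphingosine-1-phosphate receptor that nonclassical monocytes need to leave the bone marrow, was between 0.614 and 5.30 CPM in sham and between 0 and 1.39 CPM after pMCAO. Its log2 fold change was −2.70 with an SE of 1.00 (edgeR, unadjusted p = 0.0189, adjusted p = 0.922), on few counts. Without the 2 libraries with high Xist, the log2 fold changes were 0.90 for Ear2 and −3.71 for S1pr5.

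**Figure D4:**
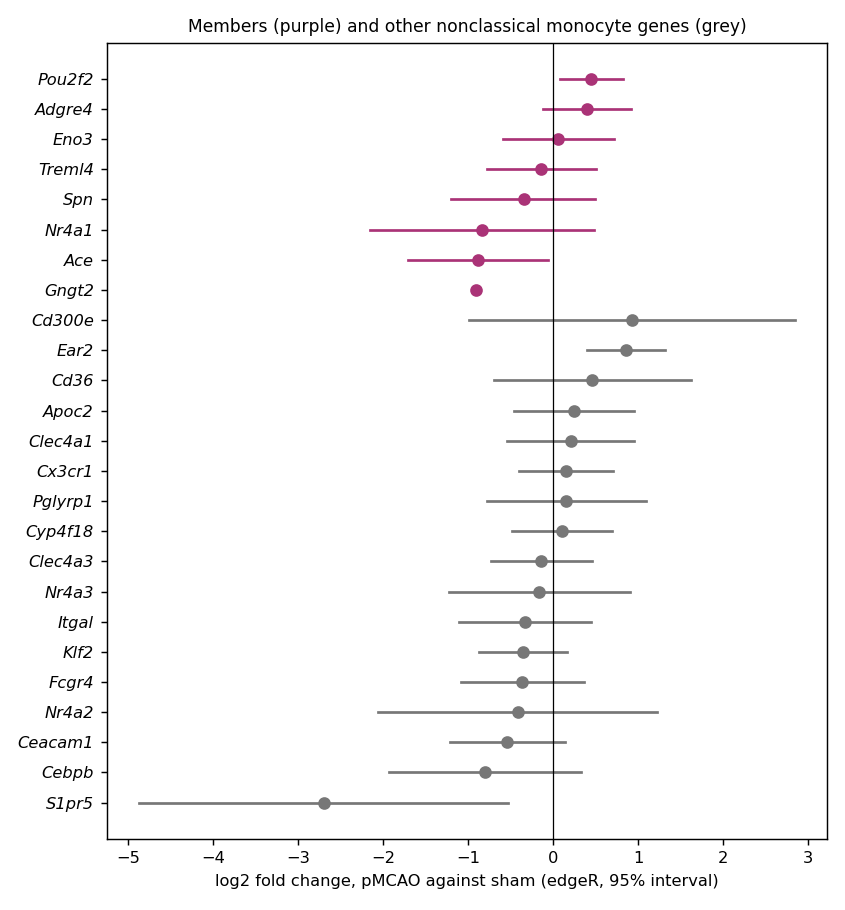
Fitted log2 fold change, pMCAO against sham, with its 95% interval (horizontal axis; none for Gngt2, which was chosen on this value) for the 8 genes (purple) and for 17 further nonclassical monocyte genes (grey). Both sets spread to either side of 0, with Gngt2 at −0.92 and Pou2f2 at 0.45 among the 8, and S1pr5 at −2.70 and Ear2 at 0.86 among the 17.

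Classical monocyte genes were split as well. Of 10 tested, 5 had a positive and 5 a negative log2 fold change, with a median of −0.041 and 0 past an FDR of 0.05. Plac8, a small protein high in classical monocytes, was at 209, 554, 302, 145 and 299 CPM in sham and at 124, 249, 70.7, 73.1 and 198 CPM after pMCAO, with a log2 fold change of −1.08 (SE 0.41, unadjusted p = 0.0227, or 0.0698 without the 2 libraries with high Xist, adjusted p = 0.922, edgeR). Vcan, encoding the matrix proteoglycan versican, was at 23.4 CPM in sham on average with a log2 fold change of −1.47 (SE 0.66, unadjusted p = 0.0450, adjusted p = 0.922, edgeR). Ccr2, the chemokine receptor by which classical monocytes enter tissue, was the most abundant, at 790 CPM in sham with a log2 fold change of 0.14 (SE 0.33). Ly6c2, which gives these cells their name, was between 7.36 and 113 CPM in sham and between 2.93 and 150 CPM after pMCAO. Macrophage markers, 12 in all, summed to between 3380 and 8660 CPM in sham and between 4740 and 9760 CPM after pMCAO, with a median log2 fold change of 0.10 and 0 past the test. The 8 dendritic cell markers, led by Cd209a and Siglech, had a median of −0.011 and 0 past the test.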

How the data were processed

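RNA of sorted lamina propria macrophages was sequenced after removal of ribosomal RNA (Trio kit, paired ends). The submitters' processing notes name STAR, featureCounts, limma and GRCm38 (mm10), without versions. The deposited table holds raw counts for each gene and CPM values, which the authors made from the same counts scaled to each library's total, checked to within 5e-04. The table's fold change, p-value and FDR columns were not used. Each listed gene has at least 10 counts in at least 2 libraries.

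Counts were filtered with filterByExpr (16949 of 17279 genes kept), TMM-scaled and tested in edgeR 4.0.16 (R 4.3.3, quasi-likelihood F-test), with Benjamini-Hochberg adjustment over all genes tested and an FDR limit of 0.05. Log2 CPM used a prior count of 2. TPM used union exon lengths of GENCODE M21. Alternatives were DESeq2 1.42.0, limma-voom (limma 3.58.1) with and without quality weights, 2 other scalings, 2 other filters, the replicate block and leaving out libraries. Leaving out the 2 libraries with high Xist, and repeating the alternatives for list genes at an unadjusted p under 0.05, were added after seeing the data. The tests were tried on simulated data.

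The 8 genes and the lists were chosen with earlier results of these data known. The genes named are the 8, the most alike by r within groups (5 for Gngt2, 2 for each other, no predicted gene models), and, per list, genes at an unadjusted p under 0.05, the 2 most abundant and paralogs. Others (Cx3cr1, Ly6c2, Nr4a2, Nr4a3, Gnb2, Dusp1, Pou2af1, Abi3, Ms4a1, Cd79a, Pax5, Blk, Xist) were added for their role or after their values were seen. Libraries of a group differed by more than counting noise (the smallest chi-square was 39.2 times its degrees of freedom). Where labels do not tie a library to 1 animal, p-values measure the spread between libraries.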

Additional observations from a re-analysis of the deposited data

Results flagged for a closer look

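Sums and single genes were screened on the log2 scale for a library set off from the rest of its group of 5 by more than 0.71 of the group's range. This held in 4 of 56 groups tested, where 2.8 would be so by chance, and in no group of the 8 genes themselves. The summed beta subunit genes, the partners of Gngt2, were high in sham replicate 4 (gap of 0.761) and in pMCAO replicate 2 (0.794). The summed enolases other than Eno3 were low in pMCAO replicate 4 (0.789). The summed Adgre1 and Adgre5 were low in sham replicate 5 (0.740), the library with the largest TMM factor and 1 of the 2 with high Xist. That library also had the lowest macrophage marker sum of all, 3380 CPM. Without it, the log2 fold change was 0.26 for Adgre4 and 0.39 for Pou2f2 (unadjusted p = 0.275 and 0.0529, edgeR).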

How the results depend on the processing

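No gene passed an FDR of 0.05 in edgeR (799 at an unadjusted p under 0.05), and 0 passed under every alternative run except DESeq2, which called 3 genes (1022 at an unadjusted p under 0.05), none of them among the 7 genes tested beside Gngt2. Limma-voom had 882 and, with sample quality weights, 1888 genes at an unadjusted p under 0.05. With the replicate block, 0 genes passed and 1303 had an unadjusted p under 0.05. Same-numbered libraries deviated together with r from −0.0055 to 0.372 (mean 0.197). For 2 of 5 numbers the libraries correlated best with their own number. No collection day is given, so the main fit did not use the numbers. Whether they mark pairs was not settled.

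The fitted value of Gngt2 ranged from −1.12 to −0.83 (log2) over 20 alternatives and was −0.95 with the block, and its sign is no sign of stability, since the gene was chosen for it on these libraries. Nr4a1 and Ace stayed negative, and Pou2f2 and Adgre4 positive. Leaving out single libraries gave −0.30 to 0.018 for Treml4 and −0.10 to 0.17 for Eno3. Treml4 turned to 0.012 without sham replicate 3 and to 0.018 without pMCAO replicate 3. Eno3 turned to −0.10 without sham replicate 1, −0.018 without sham replicate 3, −0.0089 without pMCAO replicate 5 and −0.068 without both pooled libraries. Spn turned to 0.090 without the 2 libraries with high Xist. The cause was not tested. Adjusted p-values of the 7 ranged from 0.373 to 1 over the alternatives. On total counts, 5 and not 4 pMCAO values of Gngt2 lay under the sham minimum. With a prior count of 0.5, 18 of the 19 most alike genes were shared. The lowest counts in a library were 42 for Ace, 53 for Eno3 and 75 for Spn. Unadjusted p-values under 0.05 also came for Adgre4 with the block (0.0220), with quality weights (0.0146) and without sham replicate 4 (0.0163), and for Nr4a1 without pMCAO replicate 2 (0.0427), all in edgeR except the limma-voom weights, while Ace had 0.0873 in limma-voom and Pou2f2 0.0718 without both pooled libraries. With the block in edgeR, the unadjusted p was 0.00783 for Ace (adjusted p = 0.614) and 0.0260 for Pou2f2 (adjusted p = 0.637).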
